A study of Mus musculus with 8 samples.

Results

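The 10 genes described here make and control hepcidin and carry, take up, store and export iron: Hamp, Hamp2, Bmp6, Tfr2, Trf, Tfrc, Slc11a2, Fth1, Ftl1 and Slc40a1. They were chosen by symbol from the 33212 genes of the deposited count table, and all 10 were among the 15291 genes that passed the filter on low counts. Liver RNA was sequenced from 4 Nnmt LKO mice and 4 control mice, with 1 library per mouse. The Nnmt LKO mice carried Alb-Cre and Nnmt flox/flox, so that nicotinamide N-methyltransferase was targeted in cells with an active albumin promoter, mainly hepatocytes. The control mice were labelled WT and are described by the study as Nnmt flox/flox. All 8 mice were male, on the C57BL/6 strain, and were fed for 8 weeks on a diet that lacks methionine and choline (MCD diet) and damages the liver. No group on a normal diet is part of the comparison, and the age of these mice is not given in the sources used here. The question is how the iron genes of the damaged liver differed with Nnmt in hepatocytes.

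Iron leaves cells through ferroportin (Slc40a1), the only known iron exporter. Hepcidin, a peptide hormone made by hepatocytes, binds ferroportin and causes its destruction. Hepatocytes raise hepcidin when BMP6, a ligand made by sinusoidal endothelial cells, signals through SMAD proteins, and when inflammation signals through STAT3. Iron travels in blood on transferrin (Trf) and enters cells through transferrin receptor 1 (Tfrc). It then passes from the endosome to the cytosol through DMT1 (Slc11a2) and is stored in ferritin, built from heavy (Fth1) and light (Ftl1) chains. Transferrin receptor 2 (Tfr2) is a hepatocyte sensor of transferrin-bound iron that acts upstream of hepcidin.

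Mice have 2 hepcidin genes side by side on chromosome 7, and their similarity matters for counting reads. Hamp lies at chr7:30942368-30944032 and Hamp2 at chr7:30922372-30924681 (GRCm38, the assembly also called mm10, minus strand). The last 25 codons, which encode the mature peptide, differ at 14 of 75 bases. These bases follow from the GENCODE M21 transcripts, 5′ to 3′, with the differing bases in capitals.
Hamp: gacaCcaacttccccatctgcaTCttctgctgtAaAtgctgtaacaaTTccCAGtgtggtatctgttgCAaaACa
Hamp2: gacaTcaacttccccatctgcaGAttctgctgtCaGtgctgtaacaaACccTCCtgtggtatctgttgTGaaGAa
Of the 386 stretches of 25 bases in the Hamp transcript, 156 (40.4%) also occur in the Hamp2 transcript, whereas none of its 311 stretches of 100 bases does. The study's reads were longer than 100 bases, so that a full-length read did not lie wholly within a shared stretch. The sum of the 2 genes is also given.

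Several of the other mRNAs carry iron-responsive elements, stem-loops that iron regulatory proteins (Aco1 and Ireb2) bind when iron is scarce. In a 5′ UTR the bound protein blocks translation, and in a 3′ UTR it protects the mRNA from decay. Counts of mRNA reads do not record a change in translation. A search for an unpaired C, 5 bases, the loop CAGTGN, where N is any base, and 5 bases that pair with the first 5 (G-U pairs included), on the transcribed strand only, matched 4 of the 10 genes. Each match is shown 5′ to 3′ as DNA letters with the loop in capitals, because these elements distinguish the genes whose mRNA level can follow iron directly from those regulated at translation.
Tfrc, 3′ UTR, chr16:32631220-32631243, plus strand: attatcggaagCAGTGCcttccat
Tfrc, 3′ UTR, chr16:32631599-32631622, plus strand: attatcgggagCAGTGTcttccat
Tfrc, 3′ UTR, chr16:32631664-32631687, plus strand: tatatcggagaCAGTGAtctccat
Tfrc, 3′ UTR, chr16:32631711-32631734, plus strand: attatcgggaaCAGTGTttcccat
Fth1, 5′ UTR, chr19:9982733-9982756, plus strand: tcctgcttcaaCAGTGCttgaacg
Ftl1, 5′ UTR, chr7:45459783-45459806, minus strand: tcttgcttcaaCAGTGTttgaacg
Slc40a1, 5′ UTR, chr1:45925469-45925492, minus strand: aacttcagctaCAGTGTtagctaa
The same pattern was found in the 5′ UTR of 0.124% and the 3′ UTR of 0.568% of 22527 coding genes. Slc11a2 matched only when 1 base of the 3′ arm was left unpaired, a wider pattern tried after the first gave no match there, which 1.85% of coding genes hold in a 3′ UTR.
Slc11a2, 3′ UTR, chr15:100395156-100395180, minus strand: gccatcagagcCAGTGTgtttctat
Slc11a2 is transcribed in alternative forms, and 1 of its 2 annotated coding transcripts holds this element. The counts are per gene and do not separate the forms.

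Libraries held 75020072 to 87934362 counts, so that 3 counts stood for at most 0.04 counts per 1000000 (CPM). CPM values below were normalised by TMM, which scales each library by the bulk of its genes. Nnmt ranged from 31.8 to 83.0 CPM in Nnmt LKO and from 84.9 to 224 CPM in control livers, without overlap, and its mean was 41.2% of the control mean (edgeR adjusted p = 0.123). Which exons were removed is not given in the sources used here, and other liver cells keep the gene. Nnmt LKO library a stood apart from the other Nnmt LKO libraries, and its TMM factor was 1.21 against 0.876 to 1.06 in all other libraries. It had the highest summed markers of Kupffer cells (814 CPM against 607 to 632 CPM in the other Nnmt LKO libraries) and of stellate cells (815 CPM against 447 to 490 CPM). Its summed markers of hepatocytes were the lowest (62987 CPM against 96699 to 111026 CPM). Most of this sum was albumin (Alb), with a mean of 75662 CPM in Nnmt LKO livers, where the mean sum was 94702 CPM. Among controls, Kupffer cell markers reached 776 CPM, hepatocyte markers went down to 72534 CPM and stellate cell markers reached 515 CPM. All 6 hepatocyte markers were detected, and the summed markers of each of the 8 cell types examined overlapped between the genotypes. Of 7 stellate cell markers, 3 were higher in Nnmt LKO at an unadjusted p of 0.05 in edgeR, beside 5.45% of all tested genes. They were Dcn with a log2 fold change of 0.41, Lrat with 0.34 and Reln with 0.41 (edgeR adjusted p from 0.320 to 0.368), and the median of the 7 was 0.34. At the same threshold, 1 of 6 hepatocyte markers (Pck1) and 1 of 4 cholangiocyte markers (Epcam) were higher. Of 5 tested erythroid markers, 1 (Alas2) was lower, beside 7.13% of all tested genes, and the remaining marker lists had none. The part of these cell types in the levels of the iron genes was not tested. Where leaving out library a or another library moved an estimate by over 1.5 times, the value without it is given.

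None of the 10 iron genes passed an adjusted p of 0.05 in edgeR, where 0.320% of all tested genes did. At an unadjusted p of 0.05, 1 of the 10 passed (Slc11a2, lower), against 12.6% of all tested genes (7.13% lower and 5.45% higher in Nnmt LKO). Slc11a2 was also the only member whose 4 Nnmt LKO livers all lay on the same side of the 4 control livers, which held for 8.16% of all tested genes. DESeq2 called 1 of the 10 at an adjusted p of 0.05 (again Slc11a2) and 3.28% of the 14541 genes to which it gave an adjusted p. Of the members, 5 had a higher and 5 a lower estimate in Nnmt LKO, with a median log2 fold change of 0.014 against 0.017 for all tested genes. In edgeR the shares of members called were near those of all tested genes. The DESeq2 share exceeded its background, but it rests on 1 gene.

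**Figure D1:**
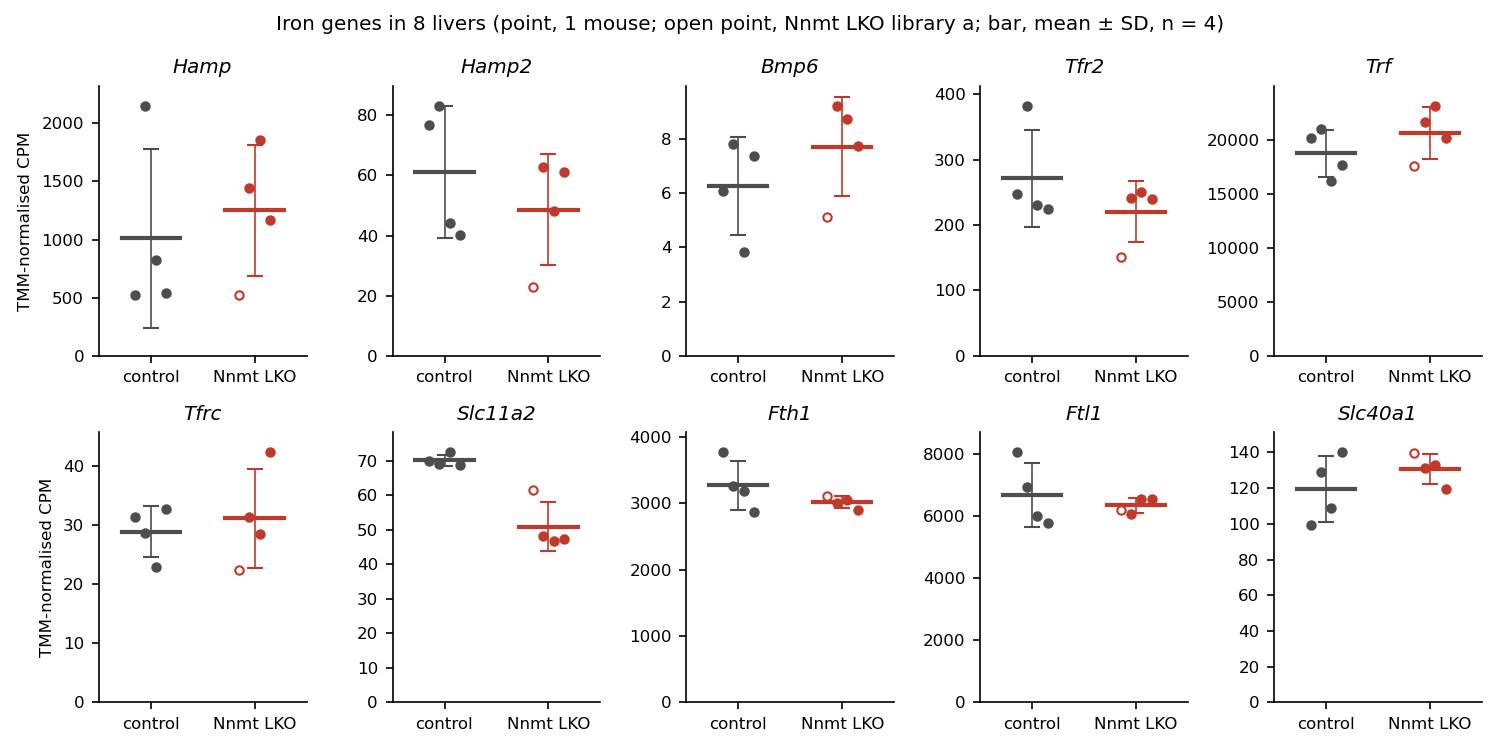
TMM-normalised CPM (vertical axes, each starting at 0) of the 10 iron genes in 4 control and 4 Nnmt LKO livers; each point is 1 mouse, the open point is Nnmt LKO library a, and bars give the mean ± SD. The Slc11a2 points of the genotypes do not overlap (46.9 to 61.5 against 68.9 to 72.4 CPM), and those of the other 9 genes do.

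The members covered a wide range of levels. Per kilobase of exon, Trf and Ftl1 were the most abundant. Trf stood at 7506 ± 861 CPM per kb in Nnmt LKO and 6822 ± 802 in control livers (SD, n = 4), and Ftl1 at 6561 ± 249 and 6921 ± 1067. Hamp followed at 3049 ± 1365 and 2464 ± 1881, and Fth1 at 1934 ± 58.5 and 2096 ± 239 CPM per kb. The spread of Hamp, 1285 to 5239 CPM per kb over the 8 livers, took in every value of Fth1, so that the order of these 2 genes does not hold beyond their spread, and that of Trf and Ftl1 does not either. Hamp2 stood at 111 ± 42.1 and 139.8 ± 50.4, Tfr2 at 66.5 ± 13.9 and 81.8 ± 22.4 and Slc40a1 at 38.8 ± 2.46 and 35.4 ± 5.50 CPM per kb, and the values of Hamp2 and Tfr2 overlapped. The receptor Tfrc (5.99 ± 1.60 and 5.56 ± 0.842) and the transporter Slc11a2 (8.89 ± 1.23 and 12.2 ± 0.279) were much scarcer, and Bmp6 was the lowest of the 10 at 2.15 ± 0.509 and 1.75 ± 0.499.

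**Figure D2:**
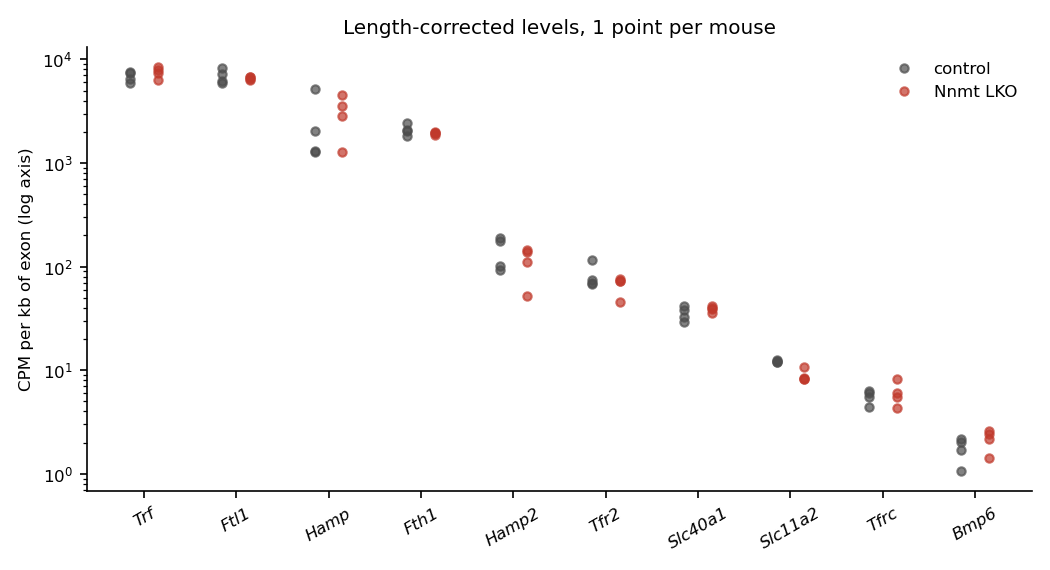
TMM-normalised CPM per kilobase of exon (log axis) for the 10 iron genes, 1 point per mouse, control livers in grey and Nnmt LKO livers in red. Trf, Ftl1, Hamp and Fth1 lie at 1285 CPM per kb or above, and Bmp6 lies lowest, at 1.06 to 2.57 CPM per kb.

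Hamp, the main hepcidin gene, varied more between mice than any other member. Its levels in Nnmt LKO libraries a to d were 528, 1447, 1859.9 and 1166 CPM, and in control libraries a to d they were 527, 2148, 828 and 539 CPM. The highest and the lowest liver were both controls and differed 4.08-fold. In Nnmt LKO, 3 of the 4 livers lay above 3 of the 4 controls, but control library b was above all of them and Nnmt LKO library a lay with the low controls. The means were 1250.1 ± 559.6 CPM in Nnmt LKO and 1010.3 ± 771 CPM in control livers (SD, n = 4). The log2 fold change was 0.31 (SE 0.47, 95% interval -0.73 to 1.34, edgeR adjusted p = 0.827), and the interval reaches from 0.605-fold to 2.53-fold of the control level. The estimate rested on single livers: it was 0.997 without control library b (adjusted p = 0.352), 0.56 without Nnmt LKO library a (adjusted p = 0.624) and 0.051 without Nnmt LKO library c (adjusted p = 0.977). It was 0.11 without control library a and 0.098 without control library d.

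Hamp2 is a copy of Hamp whose peptide has no established role in iron balance. It was 22.8, 62.7, 48.1 and 61.0 CPM in Nnmt LKO libraries a to d and 76.9, 83.1, 44.1 and 40.2 CPM in control libraries a to d. The estimate was -0.33 on the log2 scale (SE 0.32, 95% interval -1.02 to 0.36, edgeR adjusted p = 0.704). It was -0.093 without Nnmt LKO library a, -0.13 without control library b and -0.18 without control library a. With the reads of Hamp and Hamp2 summed, the log2 fold change was 0.28 (SE 0.46, edgeR adjusted p = 0.841). Hamp2 reads per Hamp read ran from 0.0259 to 0.0524 in Nnmt LKO and from 0.0387 to 0.146 in control livers. The difference in this ratio did not pass an exact two-sided permutation test (p = 0.171, 0.214 after Benjamini-Hochberg adjustment over 5 ratios).

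Bmp6, the endothelial ligand upstream of hepcidin, was 5.13, 9.22, 8.75 and 7.74 CPM in Nnmt LKO libraries a to d. In control libraries a to d it was 6.07, 7.83, 3.83 and 7.36 CPM, so that the lowest liver was a control and the 2 highest were Nnmt LKO, with overlap. Nnmt LKO differed from control by a log2 fold change of 0.30 (SE 0.24, 95% interval -0.24 to 0.83, edgeR adjusted p = 0.651). The Bmp6 estimate was 0.12 without control library c and 0.45 without Nnmt LKO library a. The summed CPM of 9 sinusoidal endothelial markers, all of them detected, was 289 to 338 in Nnmt LKO and 226 to 443 in control livers, and its part in the Bmp6 level was not tested. In RNA from whole liver, fewer cells of a type and less RNA per cell cannot be told apart. Bmp6 was also uncertain in its counts: 224 of its 3593 exon bases are shared with Txndc5 on the other strand, which had 21714 to 41975 counts against 332 to 744 for Bmp6, and use of strand in counting is not given in the sources used here.

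Tfr2, the hepatocyte iron sensor, was 152, 241, 249.8 and 240.5 CPM in Nnmt LKO libraries a to d and 248, 382, 231 and 224 CPM in control libraries a to d. Of these livers, 3 Nnmt LKO and 3 controls lay together between 224 and 249.8 CPM, with Nnmt LKO library a below them and control library b above them. On the log2 scale the difference (Nnmt LKO over control) was -0.30 (SE 0.21, 95% interval -0.75 to 0.15, edgeR adjusted p = 0.584), and it was -0.15 without Nnmt LKO library a and -0.077 without control library b. Control library b also had the highest Hamp, and Nnmt LKO library a the lowest Hamp of its genotype. Across the 8 livers, Tfr2 and Hamp gave a Pearson r of 0.693 (exact permutation p = 0.0155, adjusted over 4 relations 0.0356) and a Spearman rho of 0.643 (exact permutation p = 0.0962, adjusted 0.128). Without the same 2 livers r was 0.489 over the remaining 6. With each genotype centred on its own mean, r was 0.934 over the 8 livers, control library b and Nnmt LKO library a included. The centred r was not computed without these 2 livers, so that no relation within genotypes is concluded from it.

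Bmp6 and Hamp gave a Pearson r of 0.584 (exact permutation p = 0.125, adjusted 0.167) and a Spearman rho of 0.738 (exact permutation p = 0.0458, adjusted 0.128) over the 8 livers. Without control library c and Nnmt LKO library a, the r of Bmp6 and Hamp was 0.751. Hamp2 and Hamp gave an r of 0.513 (exact permutation p = 0.192, adjusted 0.192) and a rho of 0.429 (exact permutation p = 0.299, adjusted 0.299). Without Nnmt LKO library a and control library b the r of Hamp2 and Hamp was -0.0038, so that the value of r depended on those 2 livers. In each relation, the 2 livers left out were those farthest from the median of the first-named gene. Leaving these out narrows the range of that gene, which can by itself lower r. The 4 relations were chosen after the values were seen, and they pool both genotypes. With each genotype centred on its own mean, r was 0.539 for Bmp6 and Hamp and 0.659 for Hamp2 and Hamp.

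Trf encodes transferrin, the iron carrier of blood, which hepatocytes secrete. It was 17588, 21651, 23139 and 20160.1 CPM in Nnmt LKO libraries a to d and 20170.2, 20970.4, 16203.5 and 17674 CPM in control libraries a to d. The means, 20635 ± 2367 and 18755 ± 2205 CPM (SD, n = 4), differed by less than the SD of either group. The log2 fold change was 0.14 (SE 0.18, 95% interval -0.25 to 0.53, edgeR adjusted p = 0.787). The Trf estimate was 0.21 without Nnmt LKO library a, 0.078 without Nnmt LKO library c and 0.073 without control library c. Scaled by library totals instead of TMM, the 4 Nnmt LKO livers (19268 to 22039 CPM) all lay above the controls (16965 to 19211 CPM), with a log2 fold change of 0.19 and an edgeR adjusted p of 0.535. A second annotated gene, Gm20425, shares 2108 of the 2749 exon bases of Trf on the same strand and received 28754 to 57607 counts, against 1406328 to 1937663 for Trf.

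Tfrc encodes the receptor that takes up transferrin-bound iron and carries the 4 3′ UTR elements shown above. It was 22.3, 31.3, 28.6 and 42.3 CPM in Nnmt LKO libraries a to d and 31.4, 28.7, 22.8 and 32.7 CPM in control libraries a to d. Nnmt LKO held both the lowest and the highest liver. Nnmt LKO differed from control by a log2 fold change of 0.11 (SE 0.18, 95% interval -0.30 to 0.51, edgeR adjusted p = 0.853), and it turned to -0.077 without Nnmt LKO library d. It was 0.24 without Nnmt LKO library a, 0.0081 without control library c and 0.17 without control library a or d. Erythroid and dividing cells are rich in this receptor. Summed erythroid markers were 589 to 765 CPM in Nnmt LKO and 618 to 1003 CPM in control livers, and markers of dividing cells summed to 7.41 to 34.2 and 11.1 to 19.9 CPM. The highest value for dividing cells belonged to Nnmt LKO library a, which had the lowest Tfrc of that genotype. The part of these cells in the Tfrc level was not tested.

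Slc11a2 encodes DMT1, the transporter that moves iron from endosomes into the cytosol, and it lies at chr15:100387898-100425072 on the minus strand. It was 61.5, 48.1, 46.9 and 47.3 CPM in Nnmt LKO libraries a to d and 69.9, 69.1, 72.4 and 68.9 CPM in control libraries a to d. Every Nnmt LKO liver lay below every control liver, and library a was the nearest to the controls. The control livers were closely grouped, with a highest value 1.05-fold over the lowest. The means were 50.9 ± 7.04 CPM in Nnmt LKO and 70.1 ± 1.60 CPM in control livers (SD, n = 4), so that Nnmt LKO stood at 72.7% of control. On the log2 scale the difference (Nnmt LKO over control) was -0.46 (SE 0.11, 95% interval -0.70 to -0.22). Its unadjusted p was 0.00155 in edgeR, but it did not pass adjustment over all tested genes in edgeR (adjusted p = 0.107) and did in DESeq2 (adjusted p = 0.0142).

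In edgeR the call on Slc11a2 depended on Nnmt LKO library a. Without it the log2 fold change was -0.56 and the edgeR adjusted p was 0.0275, and without any other single library the edgeR adjusted p ran from 0.147 to 0.346. Leaving out library a also raised the edgeR calls over all genes from 49 to 149, so that the shift was not particular to Slc11a2. Scaled by library totals, library a stood at 74.3 CPM, within the control range of 60.6 to 75.8 CPM, whereas the other 3 Nnmt LKO libraries stayed at 44.7 to 47.0 CPM. The log2 fold change on that scale was -0.39 and the edgeR adjusted p was 0.504. Scaling by DESeq2 size factors gave 46.9 to 61.7 CPM in Nnmt LKO and 68.7 to 71.5 CPM in control livers, again without overlap. An antisense neighbour, Gm5475, shares 94 of the 5732 exon bases of Slc11a2 but had 0 to 6 counts in any library. Of the 64 tested genes that start from 100 Mb onward on chromosome 15, Slc11a2 among them, the median log2 fold change was -0.06, and 10.9% were lower than Slc11a2.

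**Figure D3:**
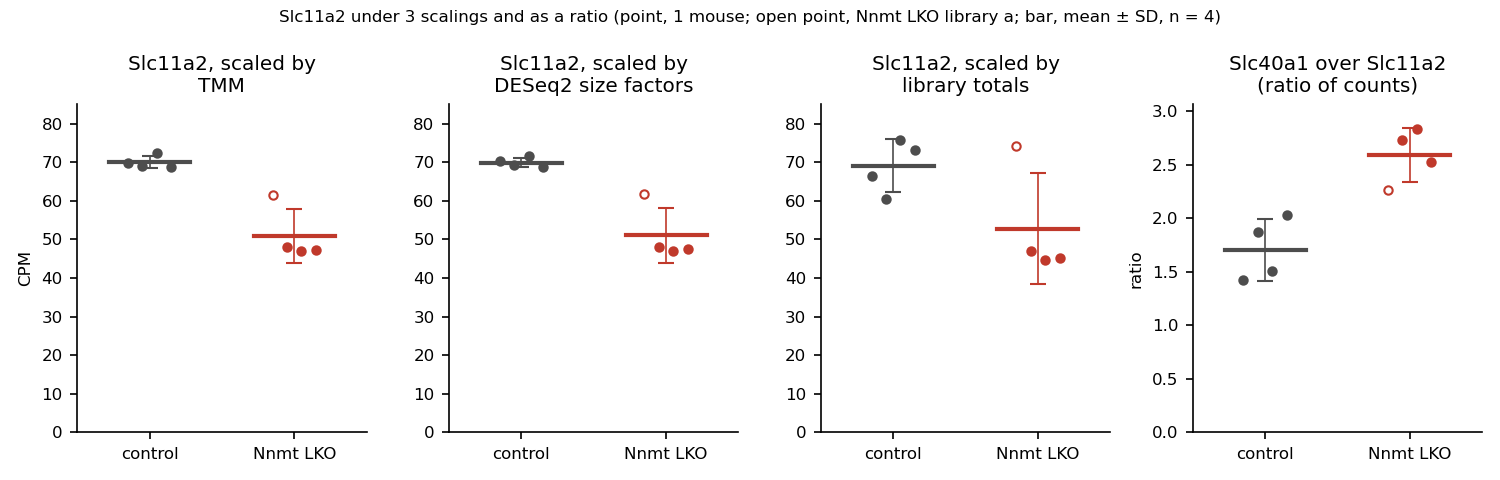
Slc11a2 in CPM (vertical axes) after scaling by TMM, by DESeq2 size factors and by library totals, and the ratio of Slc40a1 to Slc11a2 counts within a library; each point is 1 mouse, the open point is Nnmt LKO library a, and bars give the mean ± SD. The genotypes overlap only under library totals, where the open point lies at 74.3 CPM.

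Fth1 encodes the ferritin heavy chain, which oxidises iron for storage. It was 3106, 3005, 3052 and 2892 CPM in Nnmt LKO libraries a to d and 3762, 3261, 3175 and 2866 CPM in control libraries a to d. Of the controls, 3 lay above every Nnmt LKO liver and control library d lay below them all, so that the genotypes overlapped through 1 liver. The log2 fold change was -0.12 (SE 0.14, 95% interval -0.42 to 0.19, edgeR adjusted p = 0.771). The Fth1 estimate was -0.02 without control library a and -0.17 without control library d. The Nnmt LKO livers differed by at most 1.07-fold among themselves and the control livers by 1.31-fold.

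Ftl1 encodes the light chain, which helps form the mineral core of ferritin. It was 6216, 6079.8, 6563 and 6545 CPM in Nnmt LKO libraries a to d and 8060.2, 6932, 6024 and 5784 CPM in control libraries a to d. Here too the control livers spread on both sides of the closely grouped Nnmt LKO livers. Nnmt LKO differed from control by a log2 fold change of -0.08 (SE 0.16, 95% interval -0.43 to 0.27, edgeR adjusted p = 0.881) and turned to 0.044 without control library a. It was -0.049, -0.13 and -0.14 without control libraries b, c and d in turn. Both chains were highest in control library a and lowest in control library d. Fth1 and Ftl1 gave a Pearson r of 0.851 over the 8 livers (exact permutation p = 0.0178, adjusted 0.0356) and a Spearman rho of 0.643 (exact permutation p = 0.0962, adjusted 0.128). Without control libraries a and d, the livers farthest from the median of Fth1, the r was 0.185. The value of r thus depended on those livers, although leaving out extremes can by itself lower r. With each genotype centred on its own mean and all 8 livers kept, r was 0.864. The count of Ftl1 per Fth1 read was 2.001 to 2.26 in Nnmt LKO and 1.90 to 2.14 in control livers (exact permutation p = 0.457).

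Slc40a1 encodes ferroportin, which in liver is rich in Kupffer cells and also present in hepatocytes. It was 139, 131, 133 and 119.6 CPM in Nnmt LKO libraries a to d and 99.4, 129, 109 and 139.98 CPM in control libraries a to d. All 4 Nnmt LKO livers lay within the control range. On the log2 scale the difference (Nnmt LKO over control) was 0.13 (SE 0.13, 95% interval -0.14 to 0.41, edgeR adjusted p = 0.701). The Slc40a1 estimate was 0.22 without control library d and 0.075 without control library a. Summed Kupffer cell and macrophage markers, 8 of them detected, ran from 607 to 814 CPM in Nnmt LKO and from 429 to 776 CPM in control livers. The highest marker sum in each genotype belonged to the library with the highest Slc40a1 (Nnmt LKO library a and control library d), as did the lowest in control livers (control library a). In Nnmt LKO the lowest marker sum belonged to library c (607 CPM) and the lowest Slc40a1 to library d. The part of these cells in the Slc40a1 level was not tested.

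**Figure D4:**
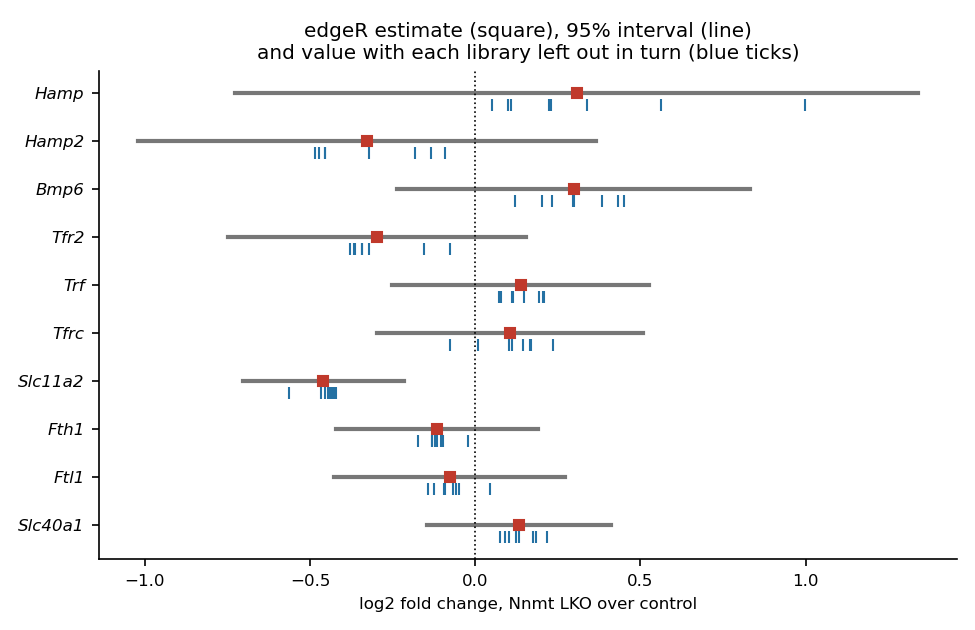
Log2 fold change of Nnmt LKO over control (horizontal axis) for the 10 iron genes, with the edgeR estimate as a square, its 95% interval as a line, and the 8 estimates with each library left out as blue ticks. The Slc11a2 interval (-0.70 to -0.22) lies below 0, the other 9 intervals cross 0, and that of Hamp is the widest of the 10.

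Ratios of counts within a library do not depend on how libraries are scaled. Slc40a1 reads per Slc11a2 read, an exporter over an importer, were 2.27, 2.73, 2.84 and 2.53 in Nnmt LKO libraries a to d and 1.42, 1.87, 1.504 and 2.03 in control libraries a to d. Every Nnmt LKO liver lay above every control liver, library a included. The denominator, Slc11a2, already separated the genotypes under TMM, so that this ratio is not independent support for that difference. Library a had the highest Slc40a1 of its genotype (139 CPM), and its Tfrc reads per Slc11a2 read, 0.363, lay within the control range. The mean ratio was 2.59 ± 0.25 in Nnmt LKO and 1.71 ± 0.29 in control livers (SD, n = 4; exact two-sided permutation p = 0.0286, the smallest that 70 assignments allow, and 0.143 adjusted over 5 ratios). Tfrc reads per Slc11a2 read were 0.363 to 0.893 in Nnmt LKO and 0.316 to 0.475 in control livers, with overlap (exact permutation p = 0.114, adjusted 0.214). Tfr2 reads per Tfrc read were 5.69 to 8.74 and 6.85 to 13.3 (exact permutation p = 0.171, adjusted 0.214). The ratios were chosen after the values were seen.

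Around the 10 genes, 5 lists of the same pathway held 78 further genes, of which 75 were tested. None passed an adjusted p of 0.05 in edgeR, where 0.320% of all tested genes did. DESeq2 called 1 in cellular iron handling and 1 among the scavengers, beside 3.28% of all genes with a DESeq2 adjusted p. At an unadjusted p of 0.05 in edgeR, 7 of the 75 were lower (9.33%) and 3 were higher (4%), beside 7.13% and 5.45% of all tested genes. Genotypes did not overlap for 6 of the 75 (8%), beside 8.16% of all tested genes, and the median log2 fold change was -0.04. The lists as a group were thus close to the background.

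In hepcidin control by BMP and SMAD, 1 of 20 tested genes was lower and 1 higher at an unadjusted p of 0.05. Of all tested genes, 7.13% were lower and 5.45% higher at this threshold. The lowest p in the downward direction was that of Hjv, hemojuvelin, the BMP co-receptor of hepatocytes. It stood at 65.1 to 88.7 CPM in Nnmt LKO and 94.1 to 117 CPM in control livers, without overlap (log2 fold change -0.43, SE 0.12, edgeR adjusted p = 0.176). In the upward direction it was Bmpr1a, a type I BMP receptor, at 17.6 to 23.0 and 15.5 to 19.6 CPM (log2 fold change 0.27, SE 0.12, edgeR adjusted p = 0.391). In hepcidin control by IL-6 and STAT3, none of 8 tested genes passed in either direction. The nearest were Jak1, a kinase of the IL-6 receptor, with a log2 fold change of -0.22 (edgeR adjusted p = 0.500), and Inhbb, the activin B subunit, with 0.24 (edgeR adjusted p = 0.679).

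In cellular iron handling, 3 of 19 tested genes were lower and 1 was higher at an unadjusted p of 0.05. The shares of all tested genes were 7.13% lower and 5.45% higher, and none of the 19 passed adjustment in edgeR. Steap3, the ferrireductase that reduces iron in the endosome before DMT1 carries it out, was 21.2 to 32.0 CPM in Nnmt LKO and 31.7 to 41.5 CPM in control livers, with overlap at 1 pair of values (log2 fold change -0.51, SE 0.14, edgeR adjusted p = 0.137, DESeq2 adjusted p = 0.0418). Cp, the ferroxidase ceruloplasmin, which loads exported iron onto transferrin, was 641 to 894 and 429.9 to 672 CPM (log2 fold change 0.39, SE 0.17, edgeR adjusted p = 0.385). Among 6 tested scavengers, Hpx, hemopexin, which binds free haem in plasma, was 5686 to 8148 CPM in Nnmt LKO and 8922 to 12900.1 CPM in control livers, without overlap (log2 fold change -0.57, SE 0.18, edgeR adjusted p = 0.215, DESeq2 adjusted p = 0.0122). Cd163, the macrophage receptor for haptoglobin-haemoglobin, had a log2 fold change of 0.75 (SE 0.35, edgeR adjusted p = 0.407).

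In iron-sulphur cluster assembly, 2 of 22 tested genes were lower and 1 was higher at an unadjusted p of 0.05. Among all tested genes these shares were 7.13% and 5.45%. Nubp2, part of the cytosolic scaffold, was 44.5 to 52.0 CPM in Nnmt LKO and 57.6 to 61.1 CPM in control livers, without overlap (log2 fold change -0.28, SE 0.09, edgeR adjusted p = 0.237). Among the mRNAs of the iron regulatory proteins, Aco1 had a log2 fold change of -0.19 (SE 0.13, edgeR adjusted p = 0.581) and Ireb2 of 0.14 (SE 0.15, edgeR adjusted p = 0.739). Counts of mRNA reads do not show the levels or activity of these proteins. Both lie outside the rule for named genes and were added after their values were seen.

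**Figure D5:**
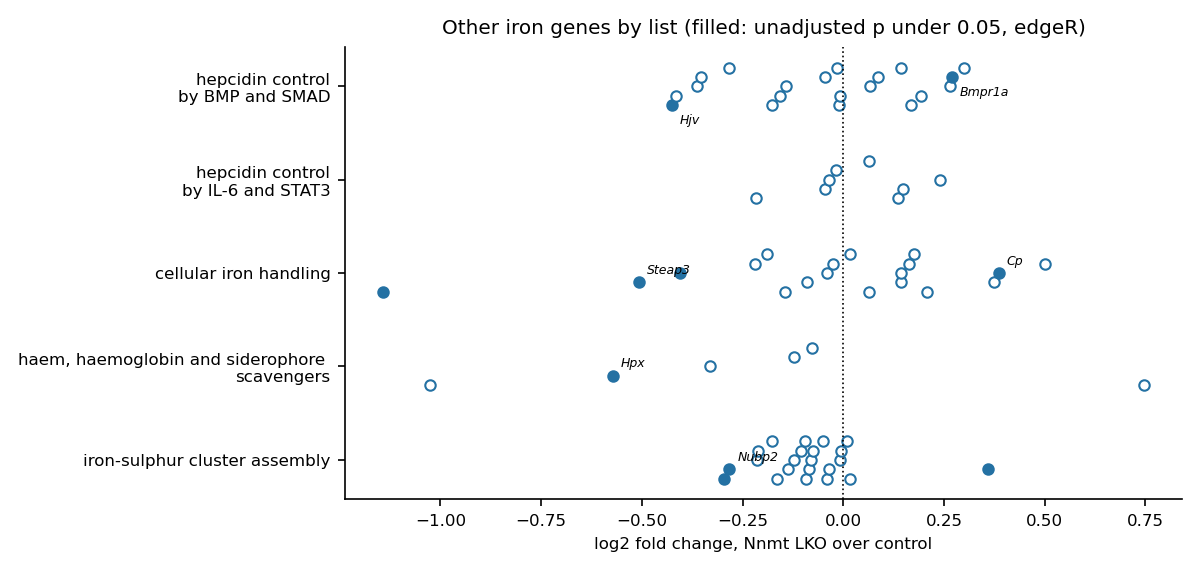
Log2 fold change of Nnmt LKO over control (horizontal axis) for the 75 tested genes of 5 iron lists (rows), 1 point per gene, shifted vertically only to keep points apart. Filled points have an unadjusted p under 0.05 in edgeR (those described in the text are named), 7 of them lower and 3 higher in Nnmt LKO, and none passed adjustment.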

How the data were processed

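Liver RNA was sequenced from 4 Nnmt LKO and 4 control mice. The authors aligned reads with HISAT2 and deposited the reads of each gene as raw whole-number counts. The submitters' processing notes also name StringTie and the build mm10, and no versions, annotation or use of strand are given in the sources used here. The labels and the study name different library kits. Columns carried genotype but no mouse number, so that libraries were lettered a to d by column order. No pair of libraries of a genotype agreed within sampling noise, so that none was counted as a duplicate.

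Genes were kept by filterByExpr (minimum count 10) and tested with the quasi-likelihood test of edgeR 4.0.16 (TMM, R 4.3.3), Benjamini-Hochberg adjusted over all 15291 genes; DESeq2 1.42.0, other scalings, no filter and leaving out each library were alternatives. Tests were tried on simulated data. Positions and sequences came from GENCODE M21. Exact permutation tests were two-sided. Libraries held 75020072 to 87934362 counts, and errors are the spread between 4 mice per genotype. Named genes were the 10 members, Nnmt and, per list, genes at an adjusted p under 0.05 or else the smallest p in each direction. Some genes under this rule are not reported here. Members, lists and markers were chosen with earlier results of these data known.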

Additional observations from a re-analysis of the deposited data

Results flagged for a closer look

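Of 48 groups of 4 livers examined (the 10 members, Nnmt, the 5 ratios and the 8 summed cell type markers, each within a genotype), 5 held a liver far from the other 3 by Dixon's test, and chance alone gives about 1 in 20, or 2.4. Tfr2 was 382 CPM in control library b, against 224 to 248 CPM in the other controls, and 152 CPM in Nnmt LKO library a, against 240.5 to 249.8 CPM in the others. Slc11a2 was 61.5 CPM in Nnmt LKO library a, against 46.9 to 48.1 CPM. In the same library, the Kupffer cell and macrophage markers summed to 814 CPM against 607 to 632 CPM, and the stellate cell markers to 815 CPM against 447 to 490 CPM. Thus 4 of the 5 values belong to Nnmt LKO library a. The part of these cells in the values of Tfr2 and Slc11a2 was not tested.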

How the results depend on the processing

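No paired analysis was possible because the columns of the count table carry no mouse numbers. Over all genes, 49 passed an adjusted p of 0.05 in edgeR, 30 with DESeq2 size factors, 22 with library totals, 8 with no filter on low counts, 477 with the DESeq2 test, and 6 to 149 when 1 library was left out, the highest without Nnmt LKO library a. The number of iron genes called was 0 in edgeR, 1 in DESeq2 and 0 to 1 with 1 library left out. The single call was Slc11a2 each time (log2 fold change -0.46 in DESeq2 and -0.56 without Nnmt LKO library a). Iron genes at an unadjusted p of 0.05 numbered 1, and 1 to 2 with 1 library left out, the second being Hamp without control library b. Iron genes without overlap numbered 1, and 1 to 2 with 1 library left out, the second being Fth1 without control library d. A smaller group separates from the other more easily by chance. The shares of all tested genes with 1 library left out are not given here for either count. No conclusion on Hamp or Fth1 is therefore drawn from these counts. With library totals the 1 iron gene without overlap was Trf in place of Slc11a2, and the median of all tested genes moved to 0.07 on the log2 scale. With 1 library left out, the log2 fold change of Tfrc ran from -0.077 (without Nnmt LKO library d) to 0.24 and that of Ftl1 from -0.14 to 0.044 (without control library a). Directions reversed in these 2 settings and for no other member under any alternative run. The causes were not tested. Each member had at least 332 counts in every library, and each estimate rests on 4 mice per genotype.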
